A study of Homo sapiens with 24 samples.

Results

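Fatty acid synthesis, elongation and desaturation were followed at the RNA level through 10 genes in the HSJD-DIPG-007 line under LLY-283, an inhibitor of the arginine methyltransferase PRMT5. The genes were SREBF1, ACLY, ACSS2, ACACA, FASN, SCD, FADS1, FADS2, ELOVL5 and ELOVL6. They were chosen by gene symbol, with earlier results of these data known, so counts of calls among them are a description. Of these genes, 10 of 10 were found among the 58676 gene identifiers of the count file. All 10 passed the filter on low counts in each comparison.

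HSJD-DIPG-007 is an established diffuse midline glioma line, here grown as spheroids, and the labels give its genotype as H3F3A K27M, ACVR1 R206H and PIK3CA MIS in both treatment groups. Cultures received vehicle or LLY-283 at the concentration that inhibits growth by 40% (GI40). The labels speak of a single dose, whereas the methods describe fresh medium with a second dose after 5 days. Polyadenylated RNA was sequenced in 24 libraries, with 3 per treatment group for each of days 0 and 5, 2 for day 7 and 1 for each of days 1, 2, 3 and 10. The repeats are described as technical and come from 1 cell line, so the p-values measure only the spread between these libraries.

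Each library held between 13835205 and 23190369 estimated counts. At day 7 the treatment ratios of the 10 genes in the pair labelled repeat 2 were opposite in sign to those of repeat 1. The signs of repeat 1 were those of day 5 except for SCD and ACACA. Which pair carries the right labels cannot be told from these 2 pairs, and day 7 is therefore given library by library. Summed COL1A1, COL1A2, COL3A1 and FN1, genes typical of fibroblasts, stood at 161 CPM (TMM-scaled counts relative to library size) in vehicle day 5 repeat 3, 83.7 in vehicle day 7 repeat 1 and 79.1 in LLY-283 day 2, against 7.29 to 17.4 in the other libraries. These genes were picked from a list of 13 fibroblast markers after their values were seen, and the whole list did not always follow them. It summed to 434 CPM in vehicle day 5 repeat 3 and 352 in LLY-283 day 2. In vehicle day 7 it was 336 CPM in repeat 1 and 335 in repeat 2. LLY-283 day 10 had a list sum of 432 CPM with 15.3 CPM for the picked genes. The glioma markers OLIG1, OLIG2, SOX2, PDGFRA, NES and VIM each stood at 79.2 CPM or more in the 24 libraries, while SOX10 reached only 0.603 CPM. The 6 astrocyte markers summed to between 592 and 861 CPM, mostly S100B (238 to 366 CPM) and SLC1A3 (249 to 405 CPM), with GJA1 at 68 to 96 CPM and AQP4 at 0 in all 24 libraries. Of the other markers, the leukocyte gene PTPRC reached at most 0.277 CPM, and 6 adipocyte markers summed to between 2.17 and 3.75 CPM at days 0 and 5.

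Cells build fatty acids from acetyl-CoA. ACLY makes acetyl-CoA from citrate and ACSS2 makes it from acetate, ACACA converts it to malonyl-CoA, and FASN assembles palmitate. ELOVL6 lengthens palmitate, SCD introduces the first double bond into saturated chains, and FADS2, ELOVL5 and FADS1 act in turn on polyunsaturated chains. SREBF1 encodes SREBP-1, a membrane-bound transcription factor that is released by proteolysis when sterols are low and switches on many of these enzymes. The SREBP-1c transcript is itself a well-known target of the liver X receptors (LXR), nuclear receptors that respond to oxysterols.

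The sequences upstream of the start sites are given because these genes are usually described as sharing a regulator. RefSeq promoters (GRCh38.p14) were matched for 9 of the 10 genes, in 14 entries, and FASN was not matched. In all, 3 short motifs were searched on both strands of the 250 bases before each start: TCACNCCAC (a sterol regulatory element core), CCAAT and GGGCGG (a GC box), with overlapping matches counted separately. The sequences printed are those of the 5 genes that were called at day 5 and have a single promoter entry, written 5′ to 3′ on the strand of the gene with the matches in capitals. Matches on the other strand read ATTGG and CCGCCC. Under LLY-283, SREBF1 and SCD were higher at day 5, and FADS1, ELOVL5 and ELOVL6 were among those lower. They lie at chr17:17836987-17837236 (minus strand, SREBF1), chr10:100346983-100347232 (plus strand, SCD), chr11:61817004-61817253 (minus strand, FADS1), chr6:53348951-53349200 (minus strand, ELOVL5) and chr4:110198616-110198865 (minus strand, ELOVL6).
SREBF1: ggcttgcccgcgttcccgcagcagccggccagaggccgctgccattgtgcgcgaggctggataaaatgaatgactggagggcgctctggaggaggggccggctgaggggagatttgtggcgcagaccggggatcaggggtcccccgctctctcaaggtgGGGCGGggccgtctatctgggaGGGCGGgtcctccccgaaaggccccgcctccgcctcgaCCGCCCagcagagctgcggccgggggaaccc
SCD: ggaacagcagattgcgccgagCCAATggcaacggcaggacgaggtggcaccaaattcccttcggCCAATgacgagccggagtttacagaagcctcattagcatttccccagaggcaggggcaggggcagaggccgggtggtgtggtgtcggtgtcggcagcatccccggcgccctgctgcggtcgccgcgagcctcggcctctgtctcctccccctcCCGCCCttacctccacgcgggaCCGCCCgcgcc
FADS1: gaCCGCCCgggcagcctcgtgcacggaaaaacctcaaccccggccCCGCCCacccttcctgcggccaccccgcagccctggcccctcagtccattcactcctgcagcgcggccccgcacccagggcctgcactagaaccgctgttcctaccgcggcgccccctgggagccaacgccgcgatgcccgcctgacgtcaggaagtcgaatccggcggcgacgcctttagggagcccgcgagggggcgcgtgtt
ELOVL5: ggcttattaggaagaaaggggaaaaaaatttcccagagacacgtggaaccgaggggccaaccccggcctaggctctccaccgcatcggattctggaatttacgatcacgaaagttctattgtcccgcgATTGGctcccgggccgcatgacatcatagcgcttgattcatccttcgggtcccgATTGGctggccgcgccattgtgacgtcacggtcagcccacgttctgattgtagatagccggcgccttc
ELOVL6: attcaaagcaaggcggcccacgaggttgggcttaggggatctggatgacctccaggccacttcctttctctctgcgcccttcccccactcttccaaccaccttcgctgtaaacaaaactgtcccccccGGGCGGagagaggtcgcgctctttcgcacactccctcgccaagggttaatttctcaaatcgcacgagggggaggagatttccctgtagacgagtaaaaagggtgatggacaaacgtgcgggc
The SREBF1 window held 3 GC boxes and no CCAAT, whereas SCD held 2 CCAAT boxes and 2 GC boxes. The single SREBF1 window lies at the upstream end of the annotated gene, and any start further inside the gene was not searched. FADS1 held 2 GC boxes, ELOVL5 2 CCAAT boxes and ELOVL6 1 GC box. A GC box was found in 11 of the 14 windows of these genes, against 42.6% of 35116 promoter windows, and a CCAAT box in 7 of the 14, against 32%. The 14 windows are not separate units, since some genes have several and those of ACLY overlap. By gene, a GC box was found in 8 of the 9 and a CCAAT box in 5. No share by gene over all promoters is given here, and genes with several windows have more chances of a match. The windows compared were not matched for GC content. TCACNCCAC was in 0 of the 14 windows of these genes and in 0.883% of all windows. These are letter matches in a short window and not sites of binding.

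At day 0, before any exposure time, the comparison gives the background difference between the groups. None of the 10 genes was called at an adjusted p under 0.01 (edgeR quasi-likelihood test with Benjamini-Hochberg adjustment over 17780 genes, of which 3 or 0.0169% were called). DESeq2 also called 0 of the 10. None of the 10 reached an unadjusted p under 0.05, which 1012 genes did. The log2 differences lay between -0.02 for ACACA and 0.07 for SREBF1. For SREBF1 the 95% interval was 0 to 0.14, and its 3 LLY-283 libraries (117.9, 118.1 and 118 CPM) lay above its 3 vehicle libraries (113.5, 110 and 111.5 CPM).

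Levels were compared between genes per length of transcript. In vehicle at day 0, SCD stood at 173 ± 6.7 CPM per kilobase (SD, n = 3), followed by FASN at 130 ± 4.2, FADS2 at 119 ± 5.6, FADS1 at 86.3 ± 3.6 and ACLY at 58 ± 3.5. ELOVL5 (34.7 ± 0.55) and SREBF1 (22.8 ± 0.36) came next. ACACA (15.9 ± 0.32), ELOVL6 (13.9 ± 0.64) and ACSS2 (13.6 ± 0.49) closed the order, and the last 2 did not differ beyond their spread. In LLY-283 at day 5, SREBF1 stood at 49.8 ± 1.7 and ELOVL5 at 37.5 ± 2.2 CPM per kilobase, the reverse of their order in vehicle at day 5 (33.5 ± 1 and 43 ± 1.2). At day 5 FADS2 stood above FASN, at 215 ± 5.4 against 200 ± 2.7 CPM per kilobase in vehicle and 192 ± 3.2 against 184 ± 2.6 with LLY-283.

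**Figure D1:**
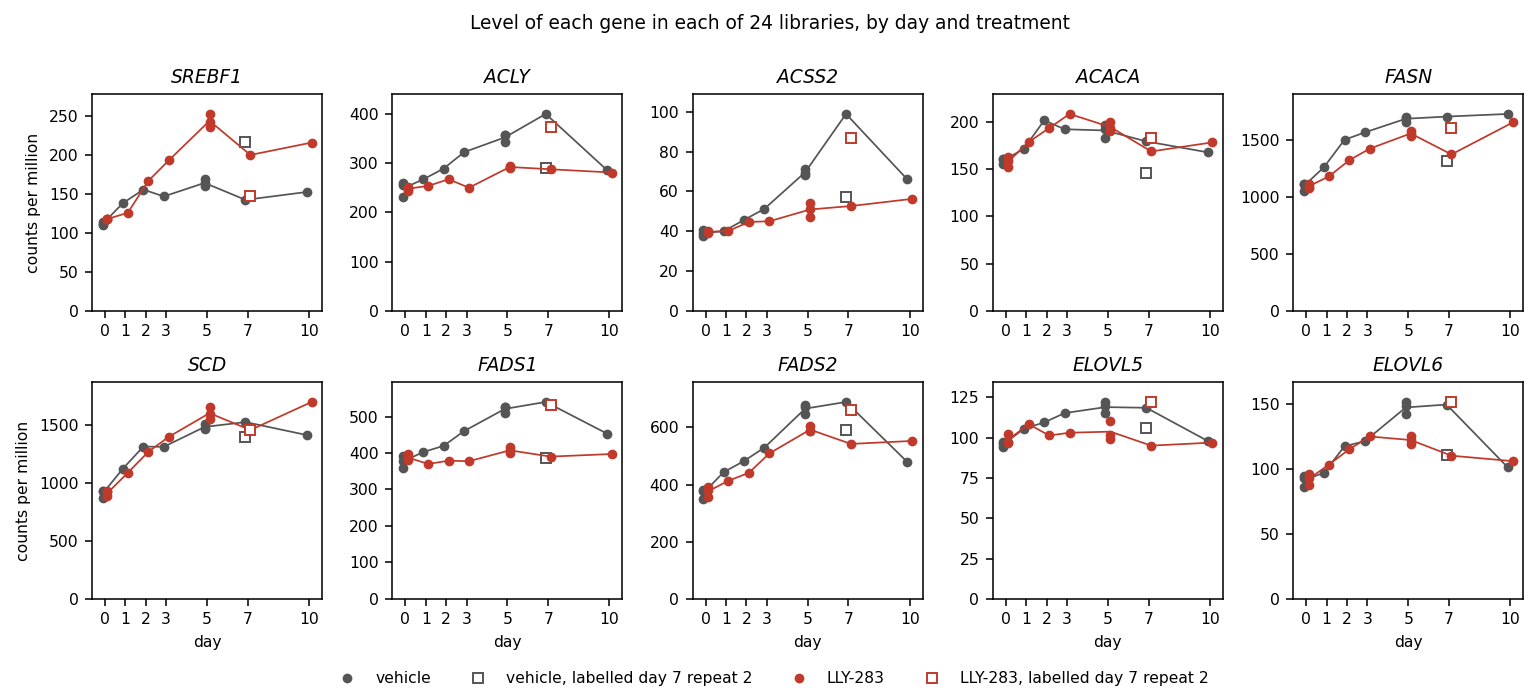
Level of each of the 10 genes in CPM (y axis, from 0) against day (x axis) in 24 libraries, vehicle in grey and LLY-283 in red, with lines through the mean of each day. Open squares are the libraries labelled day 7 repeat 2, left out of the lines. In vehicle SREBF1 stood at 159.8 to 169.7 CPM at day 5, below the 236.3 to 253 CPM of LLY-283.

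In vehicle all 10 genes rose as the spheroids were cultured. From day 0 to day 5, 10 of 10 genes were higher, where 22.1% of the 18369 genes tested were. The median log2 change of the 10 was 0.59, against -0.02 over all genes tested and 0.10 over genes averaging above 30 CPM. FADS2, the first desaturase of the polyunsaturated series, rose most, by 0.85 on the log2 scale (SE 0.036), and ACSS2 rose by 0.82 (SE 0.05). The central enzymes SCD, ELOVL6 and FASN rose by 0.71, 0.69 and 0.62. SREBF1 (0.55), ACLY (0.50), FADS1 (0.46), ELOVL5 (0.31) and ACACA (0.26) rose less, and the largest adjusted p among the 10 was 7.5e-07.

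With LLY-283 the same period brought a larger rise of the regulator and a smaller rise of 5 of the 9 enzymes. From day 0 to day 5, 9 of 10 genes were higher, where 22.6% of the genes tested were, with a median log2 change of 0.42 for the 10. SREBF1 rose by 1.09 (SE 0.036), from 118 ± 0.0973 to 244.1 ± 8.39 CPM (SD, n = 3). SCD rose by 0.85, FADS2 by 0.69, FASN by 0.55, ELOVL6 by 0.44, ACSS2 by 0.39, ACACA by 0.34 and ACLY by 0.27. For FADS1 the log2 change was 0.11 (adjusted p = 0.0082), a call that was lost in 14 of 21 alternatives, among them DESeq2 (adjusted p = 0.034). For ELOVL5 the log2 change was 0.11 and missed the threshold (adjusted p = 0.027).

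The difference between these changes was tested directly as an interaction of treatment with day. For SREBF1 the change with LLY-283 exceeded that in vehicle by 0.53 (SE 0.052, adjusted p = 2.6e-08), where 6.78% of genes were called in that direction. It fell short of that in vehicle for 5 of the 10 genes, where 8.15% of genes did. These were ACSS2 (-0.43, adjusted p = 4.9e-05), FADS1 (-0.36, adjusted p = 2.5e-06), ELOVL6 (-0.24, adjusted p = 0.0019), ACLY (-0.23, adjusted p = 0.0013) and ELOVL5 (-0.20, adjusted p = 0.0093). The call for ELOVL5 was lost in 12 of 21 alternatives and that for ELOVL6 in 2. Those for SREBF1, ACLY, ACSS2 and FADS1 were each lost in 1. SCD (0.14, 95% interval 0.04 to 0.24, adjusted p = 0.029) and FADS2 (-0.15, interval -0.26 to -0.05, adjusted p = 0.025) missed the threshold. For FASN the interval was -0.17 to 0.02 and for ACACA -0.03 to 0.18. The 2 changes, their difference and the day 5 comparison use the same libraries and are not independent of each other.

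**Figure D2:**
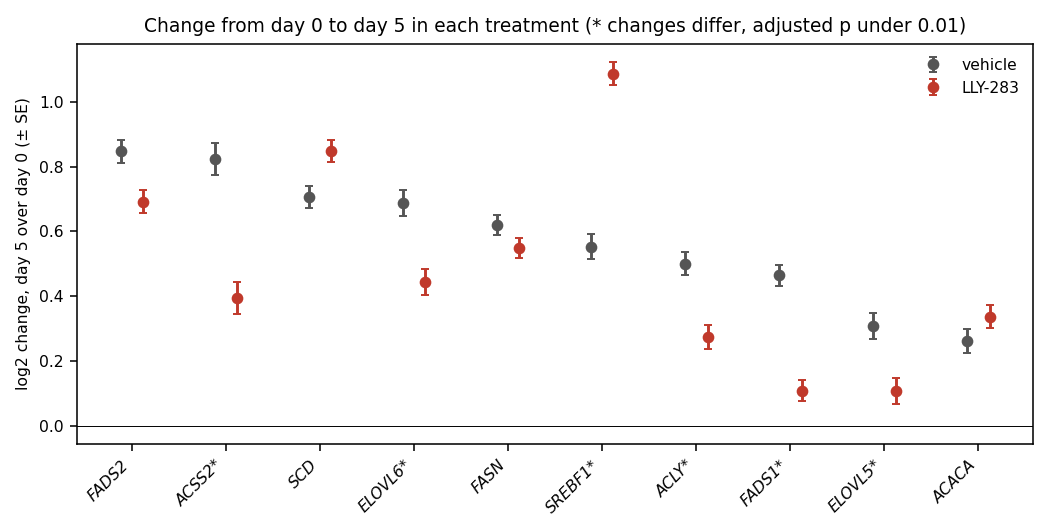
Log2 change from day 0 to day 5 (y axis, with SE) for each gene (x axis) in vehicle (grey) and LLY-283 (red), 3 libraries per group and day. SREBF1 rose by 1.09 with LLY-283 and by 0.55 in vehicle, whereas ACSS2 rose by 0.39 and by 0.82.

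At day 5 SREBF1 stood above the vehicle level and 6 of the 9 enzymes below it. Of the 10 genes, 8 were called, where 26.1% of the 16491 genes tested were. SREBF1 and SCD were higher with LLY-283, as were 12% of genes tested. ACSS2, FADS1, ACLY, ELOVL6, ELOVL5 and FADS2 were lower, as were 14.1% of genes tested, and FASN and ACACA were not called. The median log2 difference was -0.16 for the 10 genes, 0.02 over all genes tested and -0.05 over genes averaging above 30 CPM. The libraries of the 2 groups did not overlap for 9 of the 10 genes, 2 higher and 7 lower, where 46.3% of genes tested did not overlap. A lower level in bulk RNA may reflect fewer expressing cells or less RNA per cell, and these cannot be told apart here.

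SREBF1 (ENSG00000072310, chromosome 17, 17810399 to 17837002, GRCh38) stood at 159.8, 163.7 and 169.7 CPM in vehicle and at 236.3, 243.2 and 253 CPM with LLY-283. The groups were far apart relative to their spread, and the gene was 1.51-fold higher (log2 0.60, SE 0.039, adjusted p = 2.6e-12). The counts are per gene, so the SREBP-1a and SREBP-1c transcripts are not separated.

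ACSS2 (ENSG00000131069, chromosome 20, 34872146 to 34927962), which makes acetyl-CoA from acetate, had the largest decrease of the 10. Its level was 68.45, 69.26 and 71.21 CPM in vehicle and 51.32, 54.33 and 47.09 CPM with LLY-283, and it was lower by 0.43 on the log2 scale (SE 0.051, adjusted p = 1.7e-07). ACLY (ENSG00000131473, chromosome 17, 41866917 to 41930542), which supplies acetyl-CoA from citrate, stood at 357.6, 358.1 and 342.4 CPM in vehicle and at 293.7, 292.7 and 290.9 CPM with LLY-283. The difference for ACLY was -0.24 (SE 0.034, adjusted p = 1.9e-06). Both genes were thus lower in each LLY-283 library than in each vehicle library.

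The 2 enzymes that commit acetyl-CoA to fatty acids were not called. ACACA (ENSG00000278540, chromosome 17, 37084992 to 37406836), the acetyl-CoA carboxylase, overlapped between the groups, with 183.5 to 196.8 CPM for vehicle and 190.3 to 199.8 CPM under LLY-283 (log2 0.05, 95% interval -0.02 to 0.13, adjusted p = 0.3). FASN (ENSG00000169710, chromosome 17, 82078338 to 82098294), the fatty acid synthase, stood at 1664 to 1709 CPM in the vehicle libraries and 1541 to 1584 CPM under LLY-283. Its groups did not overlap, but the log2 difference of -0.09 (95% interval -0.16 to -0.02) missed the threshold in edgeR (adjusted p = 0.045) and passed it in DESeq2 (adjusted p = 0.0023).

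Of the desaturases, 1 was higher and 2 were lower. SCD (ENSG00000099194, chromosome 10, 100347233 to 100364826), the stearoyl-CoA desaturase, stood at 1513, 1469 and 1479 CPM in vehicle and at 1660, 1602 and 1557 CPM with LLY-283. Its increase of 0.14 on the log2 scale (SE 0.034, adjusted p = 0.0025) missed the threshold when 1 library was left out in 4 of 6 cases (each vehicle library and LLY-283 repeat 2), with an adjusted p between 0.013 and 0.064. FADS1 (ENSG00000149485, chromosome 11, 61799627 to 61829318), the delta-5 desaturase, stood at 527.2, 509.8 and 526.5 CPM in vehicle and at 416, 407.5 and 398.7 CPM with LLY-283, a difference of -0.33 (SE 0.034, adjusted p = 1e-08). FADS2 (ENSG00000134824, chromosome 11, 61792980 to 61867354), the delta-6 desaturase, lay between 647.1 and 679.1 CPM in vehicle and between 586.1 and 603.8 CPM with LLY-283. Its difference of -0.14 (SE 0.034, adjusted p = 0.0012) missed the threshold without vehicle repeat 2 or without LLY-283 repeat 2 (adjusted p = 0.012 in each case). FADS1 and FADS2 lie on opposite strands and share 490 bases of annotated exon, and exons of other genes on the opposite strand overlap SREBF1 by 556 bases, ELOVL6 by 240 and ACLY by 156. The strand setting of the read assignment is not given in the sources used here, so a part of these reads could belong to the overlapping gene.

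Both elongases were lower. ELOVL6 (ENSG00000170522, chromosome 4, 110045846 to 110199199), which acts on saturated and monounsaturated chains, stood at 142.3, 148.7 and 151.4 CPM in vehicle and at 125.3, 122.3 and 119.5 CPM with LLY-283, a difference of -0.24 (SE 0.038, adjusted p = 8.9e-06). ELOVL5 (ENSG00000012660, chromosome 6, 53267398 to 53349179), which acts on polyunsaturated chains, lay between 115.4 and 121.9 CPM in vehicle and between 99.03 and 110.5 CPM with LLY-283. Its difference of -0.17 (SE 0.041, adjusted p = 0.0014) missed the threshold without vehicle repeat 2 (adjusted p = 0.012) or without LLY-283 repeat 2 (adjusted p = 0.022). Without vehicle repeat 2 or without LLY-283 repeat 2, 5 of the 10 genes were called, 1 higher and 4 lower. The share of all genes called in those fits is not given here. Without vehicle repeat 3, the library with the highest sum of COL1A1, COL1A2, COL3A1 and FN1, all calls but that of SCD held. In a shared fit of the 22 libraries of days 0 to 7, which holds both day 7 pairs of opposite sign, 0 of the 10 genes were called at day 5. The differences stayed near those above, at 0.57 for SREBF1 (SE 0.13, adjusted p = 0.01), -0.45 for ACSS2 (SE 0.2, adjusted p = 0.15) and -0.35 for FADS1 (SE 0.11, adjusted p = 0.042), with larger errors. Without the 2 libraries labelled day 7 repeat 2 the shared fit called 7 of the 10. The 2 libraries were doubted on the ratios of these same genes, so that count is no separate support.

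**Figure D3:**
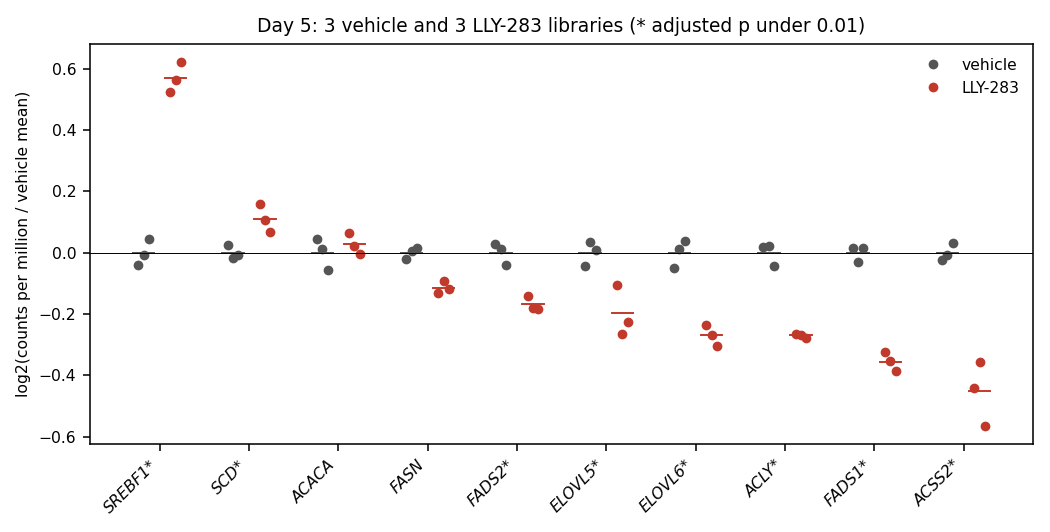
Log2 of the level in each day 5 library over the vehicle mean (y axis) for each gene (x axis), 3 vehicle libraries in grey and 3 LLY-283 libraries in red, with a bar at each group mean. The groups overlap for ACACA alone.

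The earlier days ask when the difference appeared. With 1 library per treatment group at days 1, 2 and 3, a joint fit of day and treatment averaged the treatment difference over the 3 days. Its error is the spread of that difference between days, so a difference that grows counts as error and can go uncalled. For SREBF1 the SE was 0.1, against 0.049 without the day 3 pair. The fit called 0 of the 10 genes and 0 of 17240 genes (0%), while DESeq2 called 12 genes, none of the 10. At an unadjusted p under 0.05 there were 2879 genes, 3 of the 10 among them. These were FADS1 (log2 -0.17, adjusted p = 0.15), ACLY (-0.17, adjusted p = 0.21) and FASN (-0.12, adjusted p = 0.22). Without the day 3 pair FASN was called lower (-0.13, adjusted p = 0.0064).

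SREBF1 stood at 138.4 (vehicle) and 126 CPM (LLY-283) on day 1, at 155.8 and 166.9 CPM on day 2, and at 147 and 193.2 CPM on day 3. The log2 ratio thus passed from -0.14 through 0.10 to 0.39. FADS1 stayed between 370 and 378.9 CPM with LLY-283 on these days, while it was 402.6, 419.8 and 460.2 CPM in vehicle. On day 3 ACLY stood at 322.6 (vehicle) and 250.3 CPM (LLY-283), and ACSS2 at 51.21 and 44.97 CPM. Across the 6967 genes above 30 CPM, the log2 ratio of the day 3 pair had an SD of 0.216, so only SREBF1, ACLY and FADS1 lay beyond 1 SD.

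A fit of the treatment difference as a straight line over days 0 to 5 gave a slope for each gene. It includes the libraries of days 0 and 5, so it is not independent of the comparisons above. A called slope does not by itself show a gradual change. The slope was positive for SREBF1, at 0.12 log2 units per day (SE 0.015, adjusted p = 5.5e-06), where 4.68% of 20642 genes were called with a positive slope. It was negative for 5 of the 10 genes, where 7.48% of genes were called. The slopes were -0.09 for ACSS2, -0.07 for FADS1, -0.06 for ELOVL6, -0.05 for ACLY and -0.05 for ELOVL5 (adjusted p between 7.9e-06 and 0.0034). On days 1, 2 and 3 the log2 ratios were 0.09, -0.03 and 0.04 for ELOVL6, but -0.07, -0.11 and -0.37 for ACLY. SCD (0.03, adjusted p = 0.074) and FADS2 (-0.03, adjusted p = 0.051) were not called, and neither were FASN and ACACA.

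At day 7 the values depended on which pair was read. In the libraries labelled repeat 1, SREBF1 stood at 142.6 (vehicle) and 200.3 CPM (LLY-283), and in those labelled repeat 2 at 217.5 and 147.8 CPM. ACSS2 stood at 98.91 and 52.64 CPM in repeat 1 and at 56.94 and 87.07 CPM in repeat 2. FADS1 stood at 540.1 and 390.2 CPM in repeat 1 and at 385.4 and 530.7 CPM in repeat 2. For all 10 genes the sign of the treatment ratio was opposite in the 2 pairs, though for SCD the ratios were only -0.07 and 0.06.

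Taken by label, the day 7 test called 0 of the 10 genes and 0 of 16826 genes (0%), although 236 genes had a raw p under 0.05 and 3 genes were called by DESeq2. The interaction over the 22 libraries of days 0 to 7 also called 0 of the 10, where 6 of 20756 genes (0.0289%) were called and 3166 genes had an unadjusted p under 0.05. Without the 2 libraries labelled repeat 2, the interaction called 6 of the 10 genes (2002 genes in all), namely SREBF1, ACLY, ACSS2, FADS1, ELOVL5 and ELOVL6. Without vehicle day 7 repeat 1 it called SREBF1 alone among the 10. The remaining day 7 pair is 1 library against 1, so only its effect sizes are given, from a fit of 20 libraries. SREBF1 was higher by 0.49 on the log2 scale. ACSS2 was lower by 0.91, ACLY by 0.48, FADS1 by 0.47 and ELOVL6 by 0.44. FADS2 was lower by 0.35, ELOVL5 by 0.32, FASN by 0.31, ACACA by 0.09 and SCD by 0.07. The repeat 2 libraries were left out because the ratios of these same genes opposed those of repeat 1. What remains without them, here and in the interaction, is thus no separate support for day 5. Repeat 1 could be left out on the same ground. A day 7 fit without vehicle repeat 1, which leaves 1 vehicle library, gave log2 differences of -0.30 for SREBF1, 0.31 for ACSS2 and 0.27 for FADS1. Vehicle day 7 repeat 1 is among the libraries with a high sum of COL1A1, COL1A2, COL3A1 and FN1, whose part in these values was not tested.

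At day 10, with 1 library per treatment group and no replicate check, SREBF1 still stood higher with LLY-283 (216.2 against 152.7 CPM, log2 ratio 0.50) and SCD stood at 1703 against 1417 CPM (0.27). ACSS2 (-0.23) and FADS1 (-0.19) were on the lower side. The ratios of ACLY (-0.03), ELOVL5 (-0.02) and ELOVL6 (0.07) were near 0, and that of FADS2 was 0.21. The SD of the log2 ratio across 7061 genes above 30 CPM was 0.179 at this day.

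**Figure D4:**
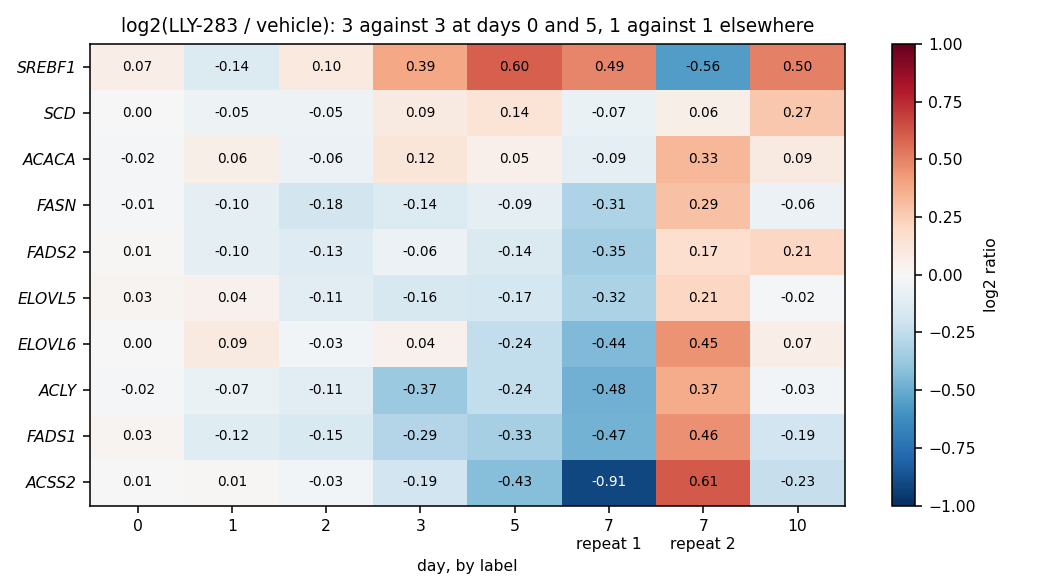
Log2 ratio of LLY-283 over vehicle for each gene (rows) on each day (columns), from red (higher) to blue (lower), from the fit at days 0 and 5 and from 1 library against 1 elsewhere. The column of day 7 repeat 2 has the opposite signs of day 7 repeat 1 in 10 of 10 rows.

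Across the 24 libraries, the log2 levels of the genes were set against each other. Pearson's r was 0.94 between ACLY and FADS1, 0.93 between ACLY and ACSS2 and 0.92 between FASN and SCD. Between SREBF1 and SCD it was 0.86, but between SREBF1 and ACLY, ELOVL5 and FADS1 it was 0.30, 0.11 and 0.08. These values are a description, since the 24 points share the course of time, the treatment and the repeats within a group. Of the 20876 genes that passed the filter over these libraries, the patterns most like SREBF1 were those of IRX2, a homeobox transcription factor (r = 0.97), ABAT, the GABA transaminase (0.97), and PLPPR4 (0.96). Most like FASN were AGRN, which encodes agrin (0.96), SREBF2, which encodes SREBP-2 (0.95), and SOX8 (0.95). Most like SCD were NOTCH3 (0.97), POLG, the mitochondrial DNA polymerase (0.97), and TMEM135 (0.97).

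The control of SREBP and LXR was next examined at day 5 in 15 genes, of which 5 were higher and 2 lower with LLY-283 (median log2 0.14). Over all genes tested, 12% were higher and 14.1% lower. This list and those that follow were chosen with earlier results of these data known, so their counts are a description. INSIG1, which retains SREBP in the endoplasmic reticulum and is itself a target of it, was lower by 0.34 (adjusted p = 6.2e-07). NR1H3, which encodes LXR-alpha, was higher by 0.58 (adjusted p = 6.9e-06), and USF1, a transcription factor of lipogenic promoters, by 0.25. Of 7 measured LXR targets outside the 10 genes, 6 were higher and 0 lower (median 0.74). They included the sterol exporters ABCA1 (0.93) and ABCG1 (0.74) and the phospholipid acyltransferase LPCAT3 (0.40). Of 20 genes of cholesterol synthesis, the pathway driven mainly by SREBP-2, 17 were lower and 1 higher (median -0.47). They included ACAT2 (-1), HMGCS1 (-0.73) and SQLE (-0.60). From day 0 to day 5 in vehicle, 17 of these 20 were higher and 1 lower (median 0.63), where 22.1% of genes tested were higher. For the difference of the 2 changes 12 were lower and 1 higher (median -0.43), where 8.15% of genes tested were lower. A rise in vehicle that was smaller with LLY-283 was thus not particular to the 10 genes.

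Other genes of fatty acid metabolism were counted in the same way. Of 28 accessory enzymes 23 were measured, with 1 higher and 3 lower (median -0.04). SCD5, a second stearoyl-CoA desaturase, was higher (0.42), and the citrate carrier SLC25A1 (-0.51), the acyl-CoA synthetase ACSL4 (-0.45) and the mitochondrial acetyl-CoA synthetase ACSS1 (-0.24) were lower. ACSF3, which activates malonate, was not called (0.22, adjusted p = 0.015). Of 20 genes of fatty acid oxidation 1 was higher, the co-activator PPARGC1A (0.47), and 4 were lower, among them ECHS1 (-0.20) and HADHA (-0.16) of the beta-oxidation cycle (median -0.04). Of 13 measured genes of lipid uptake and storage, 3 were higher and 0 lower (median 0.10), namely lipoprotein lipase LPL (0.39), the brain fatty acid binding protein FABP7 (0.36) and the acyltransferase GPAM (0.21). The day 5 comparison called 26.1% of genes tested in either direction, against which these counts should be read.

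**Figure D5:**
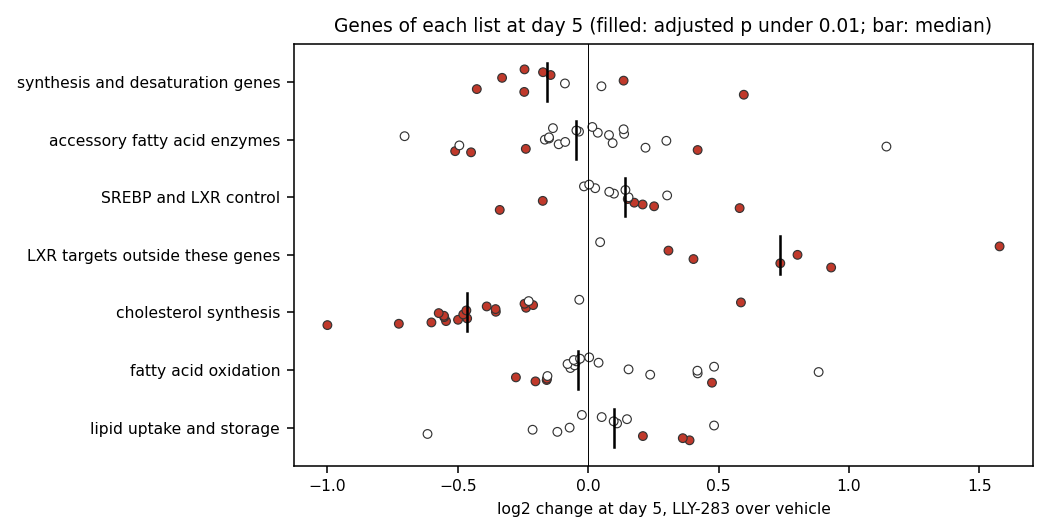
Log2 difference at day 5 (x axis, LLY-283 over vehicle) for each measured gene of 7 lists (rows), filled where the adjusted p is under 0.01, with a bar at the median. The medians are -0.16 for the synthesis and desaturation genes, 0.74 for LXR targets and -0.47 for cholesterol synthesis.

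Markers of other cell types were counted in the same comparison. Over all genes tested there, 12% were called higher and 14.1% lower. Of 11 fibroblast markers 3 were higher (LUM, THY1 and POSTN), 0 were lower and 8 were not called. Among those not called, FN1 (log2 -3.94, SE 1.9), COL1A2 (-2.86, SE 1.9) and COL1A1 (-1.55, SE 1) went the other way with large errors. Their vehicle group holds repeat 3, in which the sum with these genes was high. The 13 genes of that list summed to 265 to 434 CPM for vehicle and 348 to 349 CPM under LLY-283. The mature oligodendrocyte gene MAG was at 0 in 23 libraries. Of 4 astrocyte markers 1 was higher and 2 lower. Of the adipocyte markers only PPARG was measured and it was not called (0.63, adjusted p = 0.04), and none of the 4 microglia and leukocyte markers passed the filter. The part of cell state in the 10 genes was not tested.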

How the data were processed

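RNA of HSJD-DIPG-007 spheroids was sequenced in 24 libraries (paired-end, polyadenylated RNA, directional kit). After trimming, the authors used kallisto to assign reads to hg38 transcripts. The deposited values are estimated counts of each gene, given as whole numbers without normalisation. The kallisto version, annotation and strand setting are not given in the sources used here. Of 58676 gene identifiers, 58207 were matched to symbols (GENCODE, GRCh38). Groups followed the labels.

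Counts were tested with edgeR 4.0.16 (R 4.3.3), using TMM normalisation, filterByExpr on treatment-by-day groups (on treatment alone over days 1 to 3) and the robust quasi-likelihood test. P-values were adjusted by Benjamini-Hochberg over all genes tested, with calls at an adjusted p under 0.01. Each comparison used the libraries of its own days. CPM values used TMM factors over 24 libraries, and values per kilobase divide by the length of the canonical transcript. Correlations used log2 CPM with a prior count of 2.

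Alternatives were DESeq2 1.42.0, its size factors, scaling by total counts only, no low-count filter, a minimum of 10 counts in each library, an adjusted p under 0.05, a block for the repeat number, a shared fit of 22 libraries and leaving out libraries. A fit of 20 libraries was added after the values were seen. Tests were checked on simulated data.

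The 10 genes and the lists (accessory enzymes, SREBP and LXR control, cholesterol synthesis, LXR targets, oxidation, uptake and storage, and marker lists for glioma lines, fibroblasts, oligodendrocytes, astrocytes, adipocytes and leukocytes) were chosen with earlier results of these data known. All 10 genes were described, with the 3 genes of smallest day 5 p from each other list (5 for accessory enzymes) and the 3 genes most like SREBF1, FASN and SCD. Genes named among the marker lists were chosen after their values were seen, and the day 5 counts of the glioma line and oligodendrocyte lists are not reported here. Libraries were not treated as paired by repeat number, since deviations of same-numbered libraries correlated at only -0.076 to 0.006. These values cannot show how the libraries were prepared.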

Additional observations from a re-analysis of the deposited data

Results flagged for a closer look

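The change from day 0 to day 5 differed between LLY-283 and vehicle for 6 of the 10 genes, by the test of the difference itself (edgeR interaction of treatment with day, 3 libraries per group and day). As LLY-283 minus vehicle on the log2 scale, the difference was 0.534 for SREBF1, which rose in both groups. It was -0.227 for ACLY, -0.429 for ACSS2, -0.356 for FADS1, -0.201 for ELOVL5 and -0.244 for ELOVL6, the 5 enzymes whose rise was smaller with LLY-283. The value for ELOVL5 missed the threshold in 12 of 21 alternatives, and that for ELOVL6 in 2 of 21. Those for SREBF1, ACLY, ACSS2 and FADS1 each missed it in 1 of 21, the shared fit of 22 libraries.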

How the results depend on the processing

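For day 5, the changes from day 0 to day 5 and their difference, 0 of the values for single genes changed sign under the alternatives run, 720 kept their side of the threshold, 52 lost a call and 8 gained one. At day 7 and over days 1 to 3, where none of the 10 genes was called, signs did change, for SREBF1 from -0.04 to 0.49 at day 7 without the repeat 2 libraries and from 0.14 to -0.005 without the day 3 pair. Of the counts of called genes over all comparisons, 158 stayed within 1.5 times the count reported and 9 did not. A shared fit of 22 libraries includes the 2 labelled day 7 repeat 2. In it 0 of the 10 genes were called at day 5, with log2 differences close to those reported and larger errors (SREBF1 0.57, SE 0.13, adjusted p = 0.01). It called 5 for the change in LLY-283 and 0 for the difference of the changes. Without those 2 libraries the same fit gave 7 at day 5, 8 for the change in LLY-283 and 6 for the difference. Without those 2 libraries the interaction over the time course called 6 genes in place of 0. At day 7, leaving out those 2 libraries leaves 1 library against 1, and only effect sizes are given for that pair. Those 2 libraries were doubted on the ratios of these same 10 genes, so the fits without them are no separate support. Leaving out 1 library at a time gave 5 to 8 genes at day 5, 8 to 9 for the change in LLY-283, 4 to 7 for the difference, 4 to 6 for the slope and 0 to 1 over the time course, while leaving out 1 day's pair gave 0 to 1 over days 1 to 3. The lowest day 5 count came without vehicle repeat 2 or LLY-283 repeat 2, and the single gene over the time course without vehicle day 7 repeat 1. The share of all genes called in these leave-one-out fits is not given here. A general loss of power thus cannot be told apart from a loss particular to these genes. The change in vehicle kept 10 genes throughout. With a replicate block, 8 genes were called at day 5, 0 at day 0, 10 for the change in vehicle, 8 for the change in LLY-283, 5 for the difference and 0 at day 7. Whether same-numbered libraries were prepared as pairs is not known. DESeq2 called 3300 genes in all at day 5 against 4304, and 9 of the 10. Days 1, 2, 3 and 10 rest on 1 library per treatment group.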
